A study of Mus musculus with 6 samples.

Results

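The genes described here are 10 ligands through which tumor cells can act on myeloid cells: the chemokines Cxcl1, Cxcl2, Cxcl5, Cxcl16, Cx3cl1, Ccl2, Ccl20 and Ccl28, and the colony-stimulating factors Csf1 and Csf3. They are taken by name, with no measured value in the rule. All 10 were found by Ensembl identifier among the 47643 genes of the count tables. Their levels were followed in the sorted cancer cells of 6 mouse breast tumors.

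Chemokines are small secreted proteins that bind G protein-coupled receptors and guide leukocytes along a gradient. Those of the CXC class with an ELR motif (Cxcl1, Cxcl2, Cxcl5) act through Cxcr2 and mainly draw neutrophils, whereas Ccl2 draws monocytes through Ccr2. Cxcl16 and Cx3cl1 are made as membrane-anchored proteins, and the proteases Adam10 and Adam17 release their soluble forms. Csf1 keeps macrophages alive and dividing through Csf1r, and Csf3 (G-CSF) drives the production of neutrophils. Many of these genes are known targets of NF-kB, a family of transcription factors activated by inflammatory signals.

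All 6 libraries came from MMTV-PyMT mice of the strain FVB/N-Tg(MMTV-PyVT)634Mul/J, in which the mammary tumor virus promoter drives the polyoma middle T oncoprotein in mammary epithelium. Every mouse had received the antibody B20-4.1.1 against VEGF-A at 5 mg/kg in 2 injections a week over 6 weeks, starting at 7 weeks of age. Cells negative for CD45, the pan-leukocyte antigen, and positive for EPCAM, an epithelial surface protein, were sorted from each tumor, and their RNA was sequenced from the 3′ end of transcripts. The study's methods add that the sorted cells were negative for CD31 and PDGFRα, encoded by Pecam1 and Pdgfra. The labels place the 6 tumors in 1 treatment group without a hypoxia class, so no groups were compared and each tumor is given by its number.

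Between 2509482 and 5893246 reads per tumor fell on genes, with a median of 4854788.5, and 3 counts, the limit that a count of 0 allows, corresponded to 0.509 to 1.20 CPM (counts scaled to the total on genes). Luminal epithelial markers summed to 3957 to 4874 CPM, with Epcam itself at 611 to 972 CPM. Of the 14 immune markers, summing to 104 to 321 CPM, 1 was at 0 in every tumor (Cd79a, of B cells), and Ptprc, which encodes CD45, lay between 0.797 and 3.39 CPM. Tumor 3 stood apart by its hemoglobin and Alas2 transcripts, 864 CPM against 5.66 to 69.4 CPM elsewhere, and by its macrophage transcripts, with Lyz2 at 148 CPM against 3.19 to 24.6 CPM. The 5 endothelial markers summed to at most 4.12 CPM and the 7 fibroblast markers to at most 26.4 CPM, after a sort against CD31 and PDGFRα. As in any bulk sample, fewer cells of a type and less RNA per cell cannot be told apart in the values that follow.

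Cxcl1 and Cxcl2, the neutrophil attractants KC and MIP-2, are neighbors on chromosome 5 (GRCm38), at positions 90891241 to 90893115 and 90903871 to 90905938 of the forward strand. The stretch before their RefSeq start sites is shown because it holds an NF-kB match in both genes. Whether the match bears on their levels was not tested. The sequences run 5′ to 3′ on the forward strand, from 120 to 31 bases before the start, at chr5:90891125-90891214 for Cxcl1 and chr5:90903779-90903868 for Cxcl2. Capitals mark the bases that match the NF-kB consensus.
Cxcl1: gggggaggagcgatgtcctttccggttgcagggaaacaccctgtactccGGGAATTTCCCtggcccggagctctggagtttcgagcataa
Cxcl2: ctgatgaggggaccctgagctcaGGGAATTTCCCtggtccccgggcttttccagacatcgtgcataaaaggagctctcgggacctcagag
In both, 2 overlapping matches, 1 on each strand, made up a run of 11 bases, from -71 to -61 in Cxcl1 and from -97 to -87 in Cxcl2. These distances count from the RefSeq starts. The gene positions above are from the GENCODE annotation, whose starts differ, so the distances of the 2 genes depend on the start used. The longest run the windows shared was GGGAATTTCCCTGG, of 14 bases. The RefSeq promoter table used here matched 6 of the 10 genes, and 4 of these 6 had a match within 250 bases before the start: Ccl20 with its first base at -80 and Csf1 at -154 were the others, while Cx3cl1 and Ccl28 had none. The consensus occurred in 7.25% of all 32851 RefSeq promoters of that length, counted on both strands. The core of the hypoxia response element was searched in the same windows. ACGTG, present in 16.6% of promoters, was found in Cxcl1 at -196, and GCGTG, present in 28.2%, was found in Cxcl2 at -172 and -165 and in Ccl20 at -61. These are matches of letters, and binding was not measured.

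Cxcl1 was far higher in tumor 5 than in any other tumor. Its level (ENSMUSG00000029380) was 17.5, 29.1, 23.8, 35.7, 145 and 51.5 CPM in tumors 1 to 6, from counts of 73 to 728. The 95% Poisson interval in tumor 5, 135 to 156 CPM, lay clear of that in tumor 6, the next highest, at 45.5 to 58.1 CPM. Tumor 5 was thus 8.32 times the lowest tumor, and the mean over the tumors was 50.5 ± 47.9 CPM (SD, n = 6). On the log2 scale Cxcl1 had an SD of 1.09 between tumors, at the 97.7th percentile of the 10416 genes that passed the filter on low counts, and without tumor 5 it was 0.65. The gap between tumor 5 and the next tumor, divided by the whole range, was 0.734. That is past Dixon's 95% critical value for 6 values, as it was for 17.1% of the genes tested.

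Cxcl2 (ENSMUSG00000058427) lay at a lower level than Cxcl1, with 5.26, 13.9, 4.61, 12.8, 27.0 and 10.3 CPM in tumors 1 to 6. Tumor 5 was again the highest, with an interval of 22.6 to 31.9 CPM that did not reach the 9.71 to 19.4 CPM of tumor 2. Tumors 1 and 3 were the lowest, and their intervals overlapped. The spread, an SD of 0.89 on the log2 scale, was at the 94.5th percentile. Cxcl5 (ENSMUSG00000029371, chromosome 5, 90759360 to 90761624), another ligand of Cxcr2 from the same cluster, lay between 2.91 CPM in tumor 3 and 9.38 CPM in tumor 5 with a median of 5.35 CPM. Its counts were 8 to 47, and the interval of tumor 5, 6.90 to 12.5 CPM, overlapped that of tumor 6, 4.43 to 9.05 CPM. Cxcl3 and Ppbp, neutrophil attractants of the same class, had no count in any tumor.

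**Figure D1:**
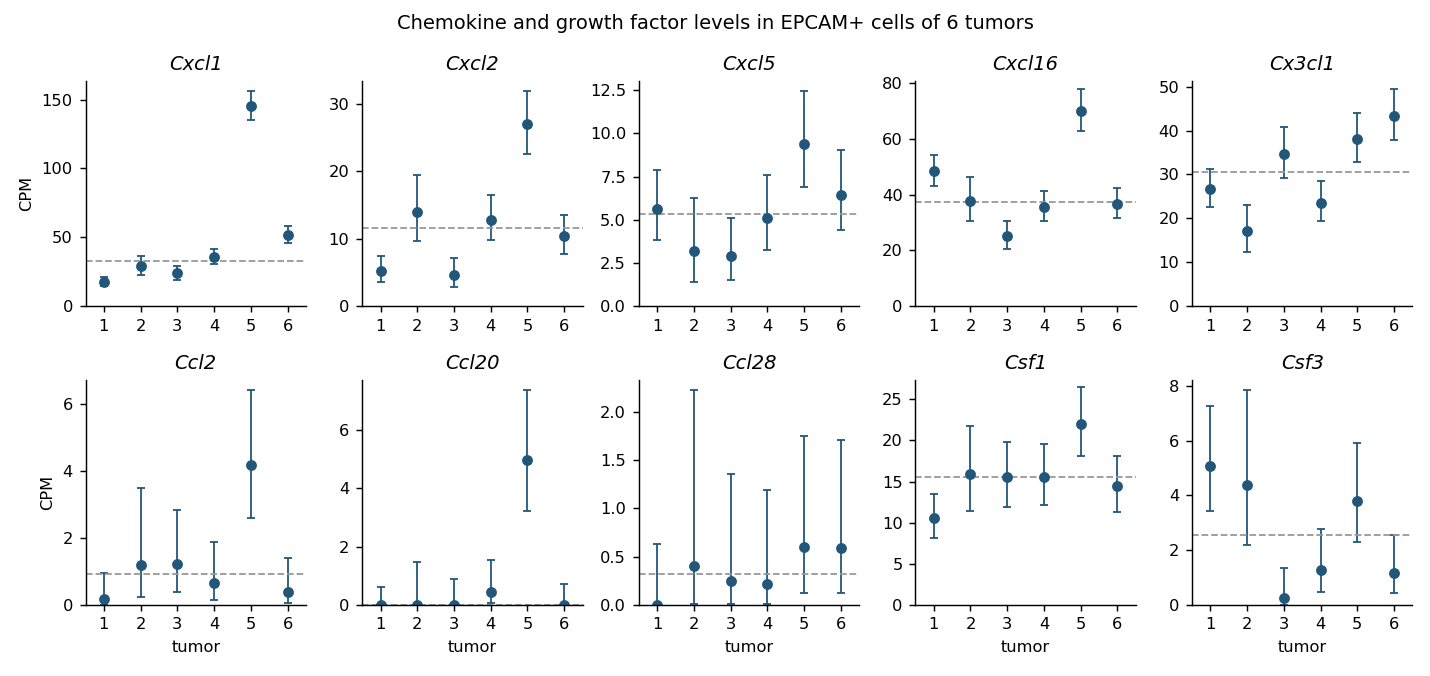
Level of each of the 10 genes in the 6 tumors, in CPM on axes that start at 0; bars are exact Poisson 95% intervals (counting error only) and the dashed line is the median of the tumors. Tumor 5 holds the highest point for Cxcl1 (145 CPM), Cxcl2 (27.0 CPM), Cxcl5, Cxcl16, Ccl2, Ccl20 and Csf1, whereas Cx3cl1 peaks in tumor 6 and Csf3 in tumor 1.

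The membrane-anchored chemokines were measured in every tumor and varied less than Cxcl1 and Cxcl2. Their SD on the log2 scale was 0.49 for Cxcl16 and 0.50 for Cx3cl1, beside 0.54 for Cxcl5. These were at the 63.1st, 64.7th and 71.4th percentiles of the genes tested. Cxcl16 (ENSMUSG00000018920, reverse strand of chromosome 11, 70453983 to 70459984), the ligand of Cxcr6, was at 48.4, 37.9, 25.2, 35.5, 70.1 and 36.7 CPM in tumors 1 to 6, a ratio of 2.78 between the highest and the lowest. Tumor 5 had an interval of 62.9 to 77.8 CPM and tumor 1, the next, 42.9 to 54.3 CPM, so that these tumors differed beyond counting error. Zmynd15 overlaps Cxcl16 on the opposite strand. The strand setting of the counting was not given in the sources used here, so reads of the pair cannot be told apart with certainty.

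Cx3cl1, or fractalkine (ENSMUSG00000031778, chromosome 8, 94772009 to 94782427), the ligand of Cx3cr1, took another order. Its level was 26.6, 17.1, 34.7, 23.6, 38.1 and 43.3 CPM, highest in tumor 6 and lowest in tumor 2. The intervals of tumors 5 and 6 overlapped, at 32.9 to 43.9 and 37.8 to 49.4 CPM. The proteases that release both chemokines were present throughout, Adam10 at 29.9 to 87.2 CPM and Adam17 at 108 to 180 CPM, highest in tumor 4 and tumor 1.

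The CC chemokines were at or near the limit of detection. Ccl2 (ENSMUSG00000035385, chromosome 11, 82035571 to 82037453), the main monocyte attractant, had 1, 3, 5, 3, 21 and 2 counts in tumors 1 to 6. Only tumors 3 and 5 exceeded the 3 counts taken as the limit, with 1.21 and 4.19 CPM. Gm17268 overlaps Ccl2 on the opposite strand. Ccl20 (ENSMUSG00000026166, chromosome 1, 83116766 to 83119167), the ligand of Ccr6, had 25 counts in tumor 5, which is 4.99 CPM with an interval of 3.23 to 7.37 CPM, 2 counts in tumor 4 and none in the other tumors. Tumor 5 therefore held 25 of its 27 counts. Ccl28 (ENSMUSG00000074715, chromosome 13, 119623819 to 119654359), an epithelial chemokine of mucosal surfaces, had 9 counts in all and at most 3 in any tumor, and differences between tumors were not detectable at this depth.

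Csf1 was the most even of the 6 genes that passed the filter on low counts. Its level (ENSMUSG00000014599, reverse strand of chromosome 3, 107741048 to 107760469) was 10.5, 15.9, 15.5, 15.5, 22.0 and 14.4 CPM in tumors 1 to 6, with a mean of 15.7 ± 3.68 CPM (SD, n = 6). Its SD of 0.35 on the log2 scale was at the 34.1st percentile of the genes tested, and without tumor 1, the lowest, it was 0.21. Tumor 5, at 18.1 to 26.5 CPM, overlapped tumor 2, at 11.4 to 21.7 CPM, but not tumor 1, at 8.07 to 13.5 CPM.

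Csf3 (ENSMUSG00000038067, chromosome 11, 98701263 to 98703629) had 30, 11, 1, 6, 19 and 6 counts, or 5.09, 4.38, 0.242, 1.28, 3.79 and 1.17 CPM. Tumor 1 was the highest, with an interval of 3.43 to 7.27 CPM that overlapped those of tumors 2 and 5. Tumor 3, with 1 count, was the lowest, and its interval reached 1.35 CPM, below the lower bounds of tumors 1, 2 and 5. Tumor 1, where Csf3 was highest, held the lowest level of Cxcl1.

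Per transcript length (TPM, on union exon length), the order of the medians was Cxcl1 with 45.5 TPM, Cxcl16 with 32.0, Cx3cl1 with 19.8, Cxcl2 with 14.3, Csf1 with 7.58, Cxcl5 with 7.46, Csf3 with 4.55, Ccl2 with 2.08, Ccl28 with 0.172 and Ccl20 with 0. The ranges of neighbors in this order overlapped, except those of Ccl2 and Ccl28. These 2 genes were at or near the floor, and their CPM ranges, 0.170 to 4.19 and 0 to 0.599, overlapped too. By TPM, Cxcl1 exceeded Cxcl16 in 5 of 6 tumors, as did Cxcl16 against Cx3cl1 and Cxcl2 against Csf1. Cx3cl1 exceeded Cxcl2 in 3 of 6, and Csf1 exceeded Cxcl5 in 3 of 6, so these neighbors were not ordered by TPM. Reads of a 3′ library do not grow with transcript length, so the division lowers long transcripts such as Csf1. The order by CPM differed. Its medians were 37.3 for Cxcl16, 32.4 for Cxcl1, 30.7 for Cx3cl1, 15.5 for Csf1, 11.6 for Cxcl2 and 5.35 for Cxcl5. The CPM range of Csf1, 10.5 to 22.0, lay above that of Cxcl5, 2.91 to 9.38.

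Of the 10 genes, 6 passed the filter on low counts (Cxcl1, Cxcl2, Cxcl5, Cxcl16, Cx3cl1 and Csf1) and 4 did not (Ccl2, Ccl20, Ccl28 and Csf3). Tumor 5 was the highest for 5 of these 6, where 17.2% of all genes tested had their highest CPM in that tumor. Over all 10 genes it was the highest for 8 by CPM and for 7 after TMM scaling, the difference being Ccl28 with 3 counts each in tumors 5 and 6. The 10 genes together gave 325 CPM in tumor 5, against 108 to 165 CPM in the others.

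Tumor 5 also had the most of 2 basal keratins, Krt14 and Krt17. The 6 basal markers summed to 534 CPM there and to 171 to 352 CPM elsewhere, with Krt14 at 359 CPM against 88.8 to 241 CPM and Krt17 at 127 CPM against 14.7 to 40.8 CPM. Acta2, a defining marker of myoepithelial cells, stayed at or below 1.21 CPM in every tumor, and the other basal markers were not highest in tumor 5: Krt5 was at 10.2 CPM there and 17.4 CPM in tumor 4, Trp63 at 4.59 and 16.0 CPM, and Mylk at 32.1 CPM against 65.7 CPM in tumor 1. In a comparison added after these values were seen, Cxcl5 and Cxcl16 followed the basal sum most closely. Krt14 was the largest part of that sum, with 359 of 534 CPM in tumor 5 and 117 of 245 CPM in tumor 4. Pearson's r was 0.90 for Cxcl5 (exact permutation p = 0.0125, Spearman's rho 0.94 with p = 0.0167) and 0.87 for Cxcl16 (exact permutation p = 0.0167, rho 0.94 with p = 0.0167). Of the 10411 genes compared, 463 had an exact p of r under 0.05 in either direction. Neither Cxcl5 nor Cxcl16 passed adjustment over the genes tested (adjusted p = 0.975). Their r fell short of these values, at 0.68 and 0.55, once the 2 tumors most distant from the median sum were left out. The part of basal cells in the level of these genes was not tested.

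The study asked what differs in tumors that become hypoxic under the antibody, and it classed tumors by the area stained for pimonidazole, a probe for hypoxia. Here a score was taken instead from the RNA of the sorted cells. It is the mean TPM of Vegfa, Slc2a1 and Car9, 3 genes induced by low oxygen. Slc2a1 weighs most in it, with a median of 108 TPM beside 33.4 for Vegfa and 16.9 for Car9. This score was 48.5, 37.2, 51.4, 76.6, 94.4 and 47.3 TPM in tumors 1 to 6, so tumor 5 was the highest and tumor 4 the next. The level of each gene was related to log2 of the score with edgeR's quasi-likelihood test over all 10416 genes. No gene of the 10416 passed an adjusted p of 0.05, which is 0% of them, and 458 had an unadjusted p under 0.05 (257 with a slope above 0 and 201 below 0).

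Cxcl1 had the steepest slope of the 6 genes tested: it was 1.51 ± 0.53 (SE) log2 units per doubling of the score, with an unadjusted p of 0.0172 and an adjusted p of 0.943. It was the 1 gene of the 6 with an unadjusted p under 0.05 and a positive slope, against 2.47% of all genes tested. Slopes were 0.92 ± 0.53 for Cxcl2, 0.75 ± 0.45 for Cxcl5, 0.50 ± 0.37 for Cxcl16, 0.36 ± 0.36 for Csf1 and 0.24 ± 0.44 for Cx3cl1, with unadjusted p-values of 0.116 to 0.594 in edgeR. All 6 slopes were above 0, as were 46.9% of those of all genes. Without tumor 5 the slope of Cxcl1 was 0.09 ± 0.78 (adjusted p = 1.00 in edgeR), and those of Cxcl2, Cxcl16, Cx3cl1 and Csf1 were -0.02, -0.22, -0.01 and -0.02.

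**Figure D2:**
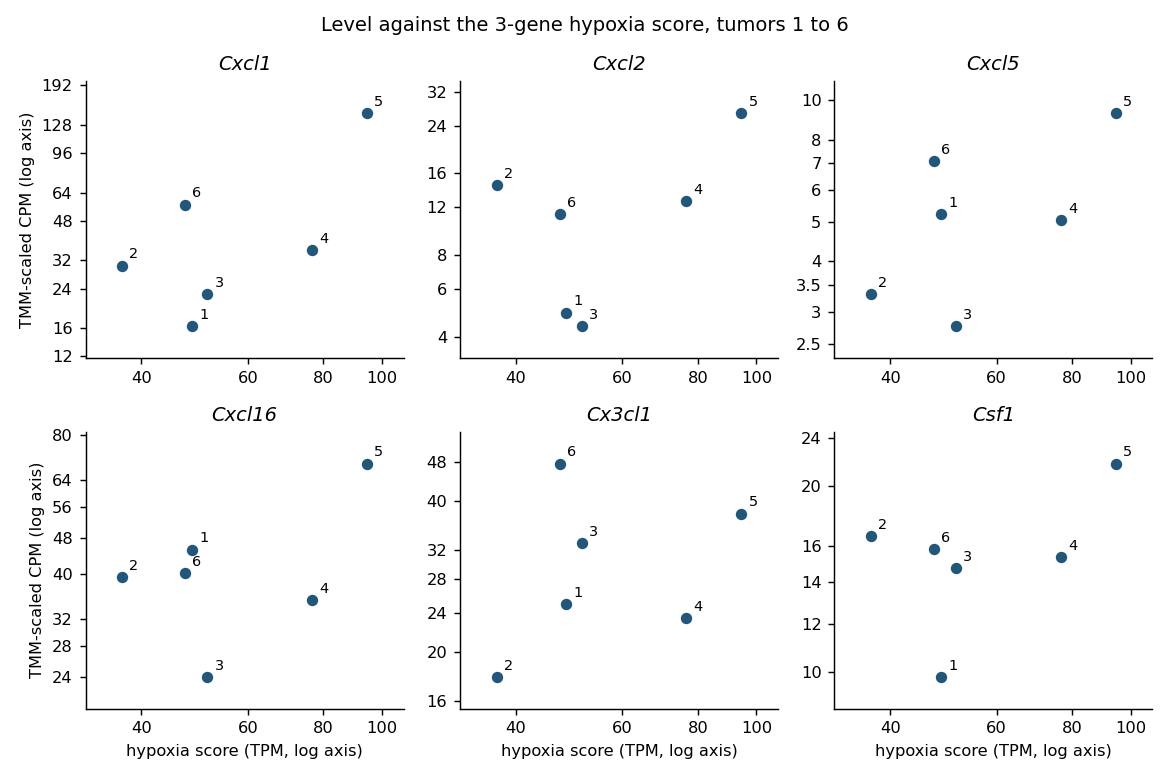
TMM-scaled CPM of the 6 genes tested against the 3-gene hypoxia score in TPM, both on log axes, with each point labelled by its tumor. Tumor 5 lies at the upper right for Cxcl1, Cxcl2, Cxcl5, Cxcl16 and Csf1, and tumor 4, with the next highest score (76.6 TPM), lies among the other tumors.

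Tumor 4 had the next highest score, 76.6 TPM. Its Cxcl1 (35.7 CPM) was above that of tumors 1, 2 and 3 and below that of tumor 6 (51.5 CPM), and its Cxcl2 (12.8 CPM) was above that of tumors 1, 3 and 6 and below that of tumor 2. Its Cxcl16 (35.5 CPM) exceeded only that of tumor 3, and its Cx3cl1 (23.6 CPM) only that of tumor 2. By exact permutation over the 720 orders of the tumors, r with the score was 0.65 for Cxcl1 (p = 0.154, rho 0.37 with p = 0.497) and between 0.32 and 0.62 for the other 5 genes. None of the 6 had an exact p under 0.05, where 2.37% of the 10413 genes compared had one with r above 0, and their adjusted p-values were 0.964 or higher. Without tumors 4 and 5, the 2 farthest from the median score, r for Cxcl1 was -0.22 and for Cxcl2 -0.83. It was -0.45 for Csf1, -0.41 for Cxcl16, 0.17 for Cxcl5 and 0.69 for Cx3cl1. Leaving out tumor 4 alone gave 0.75 for Cxcl1 and 0.50 for Cxcl2, and leaving out tumor 5 alone gave 0.09 and -0.02, so for these genes the relation rested on tumor 5.

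Mouse identifiers carry 2 prefixes, with 4 tumors under one and 2 (tumors 2 and 3) under the other, too few for values within each. With the prefix as a term, the slope of Cxcl1 was 1.38 ± 0.71 (adjusted p = 0.871 in edgeR), and no gene of the 6 had an unadjusted p under 0.05. The slopes of Cxcl5, Cxcl16 and Cx3cl1 were 0.33, 0.27 and 0.07 with that term, and those of Cxcl2 and Csf1 were 1.05 and 0.55. With no filter on low counts, 10 of 21717 genes rose with the score at an adjusted p under 0.05, which is 0.046%. Ccl20 was among them (adjusted p = 0.0292 in edgeR), with 25 of its 27 counts in tumor 5, so its fitted slope depends on the prior and is no bound. Ccl2, Ccl28 and Csf3, the last with a slope of -0.24, had adjusted p-values of 0.763, 0.953 and 0.958 in the same edgeR fit.

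**Figure D3:**
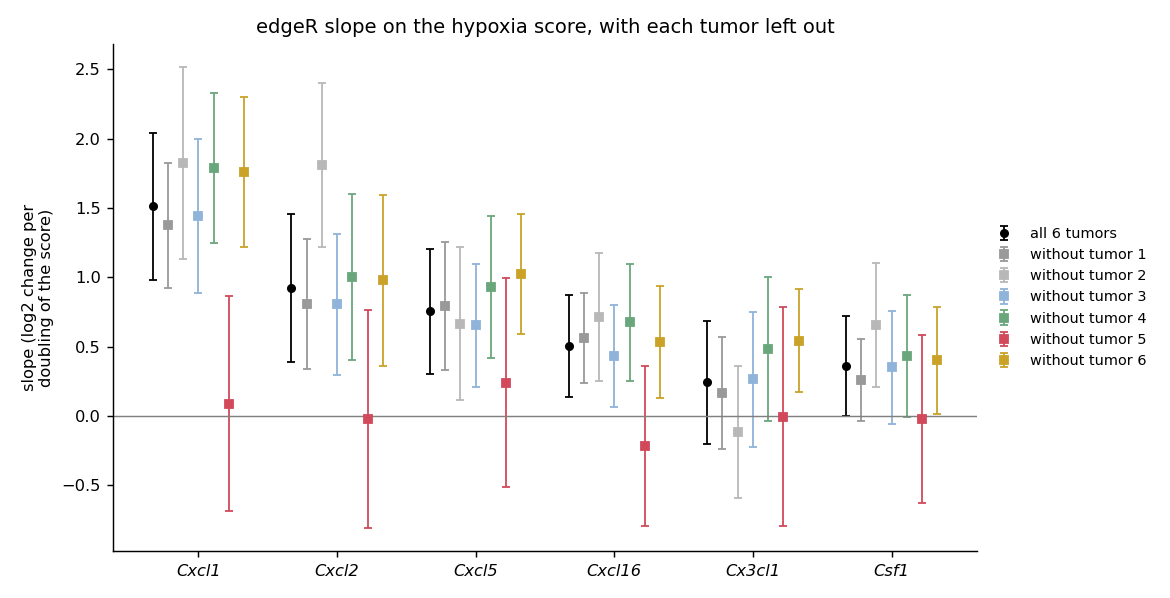
Slope of each of the 6 genes on the hypoxia score from edgeR, with all 6 tumors (black) and with each tumor left out; bars are standard errors. Without tumor 5 (red) the slopes lie between -0.22 (Cxcl16) and 0.24 (Cxcl5), and with all tumors between 0.24 (Cx3cl1) and 1.51 (Cxcl1).

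The 6 genes were then compared with one another over the tumors. All 15 pairs had r above 0, from 0.08 to 0.87 with a median of 0.63, and 4 pairs had an unadjusted exact p under 0.05. Between these 6 genes and every other gene tested, r was above 0 in 49.8% of comparisons, and 3.24% had such a p with r above 0. Cxcl1 with Cxcl2 had r = 0.87 (exact permutation p = 0.0292, adjusted over all genes 0.553) and rho = 0.71 (p = 0.136). By r to Cxcl1, Cxcl2 ranked 178th and Csf1 180th of 10415 genes. By rho, Cxcl1 with Cxcl2 was the lowest of the 4 pairs. The other 3 pairs were Cxcl1 with Csf1 (r = 0.87, exact p = 0.0431, rho 0.83 with p = 0.0583), Cxcl2 with Csf1 (r = 0.83, exact p = 0.0375, rho 0.89 with p = 0.0333) and Cxcl5 with Cxcl16 (r = 0.84, exact p = 0.0347, rho 0.89 with p = 0.0333). None passed adjustment over all genes, the lowest adjusted p of any pair being 0.553.

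Without tumor 5 the median of the 15 pairs was 0.39, and 11 pairs remained above 0. Cxcl1 kept r = 0.73 with Cxcl2 and 0.75 with Csf1 over the other 5 tumors, whereas r between Cxcl1 and Cxcl16 dropped from 0.69 to 0.10 and that between Cxcl16 and Csf1 changed from 0.37 to -0.36. With the 2 tumors most distant from the median of Cxcl1 left out, r was 0.58 with Cxcl2 and 0.40 with Csf1. Cx3cl1 was least like Cxcl2, with r = 0.08 (exact p = 0.861).

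Among 8607 genes with a median of at least 10 CPM, the nearest to each of the 5 genes above that level were found by r over the 6 tumors, as a description. Cxcl1 was most like Pbdc1 (r = 0.98) and Ext1 (0.98), which encodes a heparan sulfate polymerase. Ext1 spanned 26.3 to 77.9 CPM. Cxcl2 was most like Rab27b (0.98), a small GTPase of vesicle secretion, and Pak1ip1 (0.97). For Cxcl16 the nearest were Dmrta2 (0.98), a transcription factor, and Cytip (0.97), which spanned 54.8 to 173 CPM. For Cx3cl1 they were the tetraspanin Cd9 (0.99, at 159 to 430 CPM) and the microsomal glutathione transferase Mgst1 (0.99). Csf1 was most like Plekha7 (0.99), of the adherens junction, and the transcription factor Creb5 (0.99, at 33.4 to 170 CPM).

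Since leukocytes make several of these ligands, their levels were set beside the immune markers. Tumor 3 had the highest immune sum, 321 CPM, and 11 of the 14 markers, Lyz2, Csf1r, C1qa and Ptprc among them, were highest there. In that tumor Cxcl2, Cxcl5, Cxcl16 and Csf3 were at their lowest. Ccl2, at 1.21 CPM from 5 counts, was second there only to tumor 5, and Cx3cl1, at 34.7 CPM, was above its median of 30.7 CPM. Csf1, at 15.5 CPM, was at its median, and Cxcl1, at 23.8 CPM, was below its median of 32.4 CPM. Which cells made the ligands was not tested. Correlations of the 6 genes with the immune sum were all below 0, from -0.69 for Cxcl2 (exact p = 0.163, rho -0.60 with p = 0.242) to -0.08 for Cx3cl1. Of all 10413 genes compared, 52.3% had r above 0. None of the 6 had an exact p under 0.05. Over all genes compared, 154 had one in either direction, and 0.932% had one with r above 0. S100a8, at 73.8 to 230 CPM, made up 23.3% of the sum in tumor 3 and 57.6% to 92.2% in the other tumors, while its partner S100a9 stayed at or below 3.39 CPM. With S100a8 left out, a choice made after its level was seen, r lay between -0.52 and 0.49.

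The receptors through which the 10 ligands act were mostly near 0 in the sorted cells. Of 20 chemokine receptors, 14 stayed at or under 3 counts in every tumor, and 5 had no count. Cxcr2, the receptor of Cxcl1, Cxcl2 and Cxcl5, had at most 0.485 CPM, as had Ccr6, and Cxcr6 and Csf3r had none. These 4 and Ccr2, at up to 1.70 CPM, fall under the level for naming genes and were named as the receptors of the ligands described. Cx3cr1 lay between 3.19 and 9.57 CPM except in tumor 3, with 34.2 CPM, and Csf1r between 1.20 and 3.90 CPM except in tumor 3, with 15.5 CPM. Tumor 3 also had the most Cxcr4, 33.7 CPM against 5.18 to 23.8 CPM. Ackr3, which scavenges Cxcl12, was even, at 12.5 to 19.9 CPM. Csf2ra was at 83.8 to 171 CPM, while Csf2rb, the signaling chain with which it pairs, stayed at or below 2.42 CPM.

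Other chemokines were few. Of 11 further CXC chemokines 5 stayed at or under 3 counts, and 2 reached 10 CPM in some tumor: Cxcl12 at 4.10 to 12.4 CPM and Cxcl17 at 3.15 to 14.4 CPM. Of 18 further CC and XC chemokines 10 stayed at or under 3 counts, and 3 reached 10 CPM, namely Ccl6 (2.34 to 29.8 CPM, highest in tumor 3), Ccl25 (3.90 to 18.7 CPM) and Ccl27a (7.23 to 26.8 CPM), the last known as a chemokine of epithelia. The interferon-induced ligands of Cxcr3, which draw T cells, were at or near 0, with Cxcl9 and Cxcl10 at up to 0.242 and 0.970 CPM and Cxcl11 at 0. None of the 7 genes of both lists that were tested had an unadjusted edgeR p under 0.05 for the score, against 458 of all 10416 genes.

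Of 16 other cytokines that act on myeloid cells 15 were in the tables. Mif was at 152 to 437 CPM, Kitl (stem cell factor) at 69.1 to 132 CPM, Tnf at 15.3 to 41.7 CPM, Il33 at 8.99 to 25.5 CPM and Il1b at 0.797 to 14.1 CPM. Csf2, Il3 and Il5 had no count. None of the 4 tested (Mif, Kitl, Tnf and Il33) had an unadjusted edgeR p under 0.05 for the score. None of these 4 was highest in tumor 5, against 17.2% of all genes tested. Below the level for naming, and chosen after their values were seen, Tslp and Lif shared the pattern of Ccl20. Tslp, an epithelial cytokine that acts on dendritic cells, reached 9.38 CPM in tumor 5 against a maximum of 1.28 CPM elsewhere, and Lif, a cytokine of the interleukin 6 family, reached 3.59 CPM there against a maximum of 0.425 CPM.

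**Figure D4:**
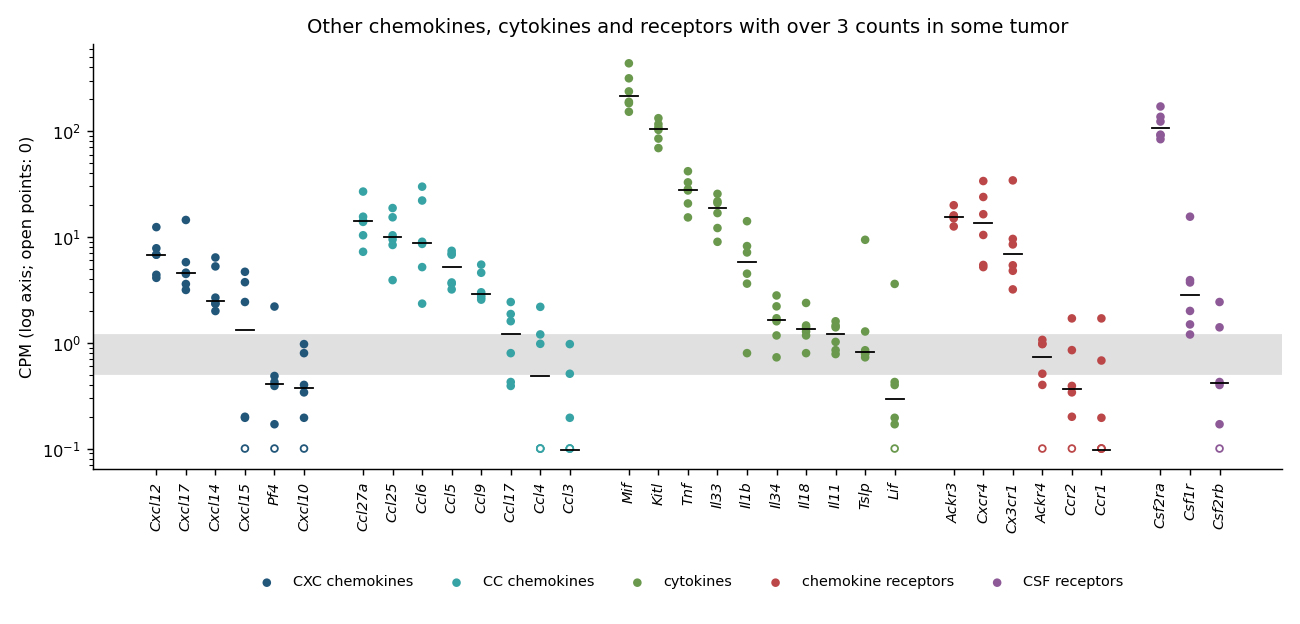
CPM of the other listed chemokines, cytokines and receptors that had over 3 counts in some tumor, on a log axis; each point is a tumor, open points are tumors at 0, black lines are medians and the grey band is the CPM of 3 counts in the 6 tumors. Mif, Kitl and Csf2ra lie highest, the receptors Ackr4, Ccr2, Ccr1 and Csf2rb have medians within or below the band, and Tslp and Lif each have 1 tumor far above the rest.

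The 20 genes of the NF-kB pathway list summed to 1857 to 2998 CPM, with the highest sum in tumor 2 and 2156 CPM in tumor 5. Of these genes 3 were highest in tumor 5, where 17.2% of all genes tested had their highest CPM. Relb was at 17.2 CPM there against 4.41 to 15.8 CPM elsewhere, and Nfkbie at 6.99 against 3.39 to 5.98 CPM. The feedback inhibitor Tnfaip3 was at 14.8 against 2.71 to 13.5 CPM. Other genes of the list peaked elsewhere. Birc3 reached 45.0 CPM and Icam1 24.3 CPM in tumor 2, against 8.79 and 6.99 CPM in tumor 5. Nfkb2 reached 114 CPM and Rela 212 CPM in tumor 1, against 24.8 and 99.2 CPM in tumor 5. Bcl3 was lowest in tumor 5, at 39.7 CPM. Nfkbia, the most abundant inhibitor, made up 1271 CPM of the sum in tumor 5 and 1667 of the 2998 CPM in tumor 2. Of the 19 genes tested, none had an unadjusted edgeR p under 0.05 with a slope above 0, and 1 had it with a slope below 0, Bcl3 (-1.31 ± 0.39, adjusted p = 0.943). Over all 10416 genes tested, 257 had such a p with a slope above 0 and 201 with a slope below 0. The median slope of the list was -0.21, beside -0.04 for all genes tested. These are RNA levels, and NF-kB activity was not tested. The 12 immediate early genes, which include genes induced by tissue dissociation, summed to 4858 to 8228 CPM, highest in tumor 2. None of the 12 was highest in tumor 5, against 17.2% of all genes tested. Milk protein transcripts summed to 6161 to 9746 CPM, and 2 of the 6 tested had a slope below 0 at an unadjusted p under 0.05 (Wap and Lalba, both with an adjusted p of 0.943 in edgeR). That was so for 201 of all 10416 genes tested.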

How the data were processed

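RNA was measured in sorted CD45-EPCAM+ cells of 6 MMTV-PyMT tumors treated with B20-4.1.1. Per the labels and the study's methods, libraries were made with the QuantSeq 3′ FWD kit with a module for molecular identifiers, trimmed with bbduk, aligned to GRCm38/mm10 with STAR 2.5 and counted with HTSeq, and RNA had an integrity number over 7. The authors deposited 1 raw count per gene and tumor, not normalized. Whether reads were collapsed by identifier, the strand setting and the annotation release are not given in the sources used here, so intervals (exact Poisson, 95%) and the floor of 3 counts cover counting error only. The 5 lines that name no gene held 16.1 to 41.4% of reads and were left out of library sizes.

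Identifiers were named with GENCODE M21, which held 47224 of 47643. CPM and TPM (union exon length) were computed from the deposited counts. TMM factors were 0.911 to 1.07. Slopes on log2 of the score came from edgeR 4.0.16 in R 4.3.3 (quasi-likelihood test, filterByExpr with a minimum count of 10 and total of 15, Benjamini-Hochberg over the genes tested), and their SE is the slope divided by the square root of F. Correlations used log2(TMM-scaled CPM + 1) with two-sided exact permutation p-values over 720 orders (smallest p of r 0.00139), adjusted over all genes tested. Scripts were tested on simulated data. Alternatives were DESeq2 1.42.0, its size factors, no filter, other forms of the score, a pseudocount of 0.5, and each tumor left out. The labels do not say how the tumors relate to animals beyond distinct identifiers, so p-values measure the spread between these samples. The genes and lists were chosen with earlier results of these data known. Named were all 10 genes, listed genes at 10 CPM or more in some tumor, and for each of the 10 with a median of at least 10 CPM its 2 nearest genes by r. Promoters were read from RefSeq (GRCm38.p6) with motifs searched on both strands. Hypoxia classes of the tumors were not used here, and 1 listed receptor is not reported here.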

Additional observations from a re-analysis of the deposited data

Results flagged for a closer look

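Over the 6 tumors, 26 measures (the 10 genes and 16 summed lists) were examined for 1 tumor set apart from the others by its gap to the nearest, divided by the whole range, against Dixon's 95% critical value. Chance sets apart about 1 in 20, or 1.3 of 26, and 5 were found, 3 of them among the 10 genes. Among single genes of these libraries the share was larger than chance gives, 17.1% of the 10416 tested, so a gap of this size was common here. Cxcl1 had a ratio of 0.734, with 145 CPM in tumor 5 and 51.5 CPM in tumor 6. Ccl2 had 0.741, with 4.19 CPM in tumor 5 and 1.21 CPM in tumor 3, from 21 and 5 counts. Ccl20 had 0.915, with 25 counts in tumor 5 and 2 in tumor 4. The sum of the other CXC chemokines had 0.654, at its low end, with 10.8 CPM in tumor 2 and 18.9 CPM in tumor 4, the next lowest. The sum of erythroid transcripts had 0.926, with 864 CPM in tumor 3 and 69.4 CPM in tumor 1.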

How the results depend on the processing

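No paired analysis was possible because the tumors form 1 group. The medians of the 10 genes moved by less than the SD between tumors under all 80 alternatives tried (other scalings, and each tumor left out), but that of Csf3, 2.53 CPM, was 1.28 CPM without tumor 1, 2 or 5 and 3.79 CPM without tumor 3, 4 or 6. Genes with an adjusted p under 0.05 for the slope on the score numbered 0 in the fit reported, 10 with no filter, 18 with DESeq2 and 0 to 2 with a tumor left out. At an unadjusted p under 0.05 they numbered 458, 1086 with no filter, 862 with the geometric mean as score and 69 to 891 with a tumor left out, 69 being without tumor 5. The slope of Cxcl1 stayed above 0 under all 12 alternatives (0.09 to 1.82) and that of Cxcl5 too (0.24 to 1.03). With a tumor left out, slopes reached from -0.021 to 1.81 for Cxcl2, -0.22 to 0.71 for Cxcl16, -0.11 to 0.54 for Cx3cl1 and -0.024 to 0.65 for Csf1, and r with the score from -0.017 to 0.82 for Cxcl2, -0.24 to 0.63 for Cxcl16, -0.13 to 0.68 for Cx3cl1 and -0.032 to 0.72 for Csf1. With the geometric mean, the unadjusted p of Cxcl2 was 0.0491 in edgeR. Genes correlated with the score at an unadjusted exact p under 0.05 numbered 438, and 130 to 617 with a tumor left out. For the immune sum they numbered 154, 232 with Lyz2 in its place and 127 to 304 with a tumor left out. With Lyz2 alone r was 0.020 for Cxcl1, 0.61 for Cx3cl1 and 0.036 for Csf1, and without S100a8, a choice made after seeing the data, 0.49 for Cx3cl1, whose r with the immune sum ranged from -0.71 to 0.31 with a tumor left out. The median r of the 15 pairs was 0.63, and 0.39 to 0.82 with a tumor left out. The causes were not tested. Depth limits Ccl2, Ccl20, Ccl28 and Csf3, each with a total of 9 to 73 counts.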
